A study of Homo sapiens with 16 samples.

Results

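A set of 57 genes that act in the DNA damage checkpoint and in DNA repair was examined across the acquisition of gemcitabine resistance by T24 bladder cancer cells. The genes were chosen by name, and all 57 are among the 39007 gene symbols of the expression table. Of these, 56 are listed under the same symbol and MRE11A under its current symbol MRE11, and H2AFX is the older symbol of H2AX. With the filter used for testing, a mean above 1 CPM (a gene's counts scaled to a library total of 1 M counts), 56 members were tested. The member left out was ATRIP, the partner protein of ATR, with a mean of 0.0615 CPM over the 16 libraries. ATRIP shares 26.7% of its exon bases with TREX1 on the same strand. How reads shared by several genes were counted is not given in the sources used here, so its low value is uncertain.

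When a replication fork stalls, single-stranded DNA is covered by replication protein A, which recruits ATR with its partner ATRIP, and ATR then activates CHEK1 through TOPBP1 and the adaptor claspin. Double-strand breaks are sensed by the MRE11-RAD50-NBN complex and ATM, and they are repaired by homologous recombination (BRCA1, PALB2, BRCA2, RAD51C, RAD51D and others) or by end joining (PRKDC with XRCC5 and XRCC6). The Fanconi anaemia pathway removes crosslinks between strands, nucleotide excision repair removes bulky lesions, and mismatch repair corrects copying errors. Gemcitabine is a nucleoside analogue that is built into DNA and also lowers nucleotide pools, so that forks stall.

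T24 is an established human bladder cancer cell line, and GRC1 is 1 of 4 lines that were derived from it stepwise by repeated rounds of gemcitabine exposure and regrowth in medium without the drug. RNA was sequenced at 4 time points with 4 libraries each, namely in T24 cells before exposure (parental phase P0) and in GRC1 at early phase P3, at intermediate phase P7 and at late phase P15. All phases were grown in the same medium with fetal bovine serum, and whether gemcitabine was present when RNA was taken is not given in the sources used here. The titles of all libraries carry the letters NT with a number, and these sources do not explain the letters. GRC1 is a single line and the sources do not state whether the libraries of a phase came from separate cultures, so p-values measure only the spread between these libraries, which may be technical.

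The values are log2 of CPM plus 1, and the spacing of the lowest values gave totals of 33.8 to 50 M counts per library, so that at least 241 counts lay behind each tested member in each library. Pearson correlations across genes were 0.9965 to 0.9984 within a phase. Of 16 urothelial marker genes, 7 were above 1 CPM on average at P0, and their summed level was 1610 to 1680 CPM at P0 and 627 to 704 CPM at P15. At P15, 6 genes of this list were still above 1 CPM on average. By the test given below, 6 of its 7 tested genes were lower and 1 higher at P15 than at P0. Of all tested genes, 40.9% were lower and 45.3% higher. The largest fall was that of KRT19, a keratin of simple and urothelial epithelium, from a mean of 6.43 at P0 to 0.02 at P15. UPK1B, UPK3A, KRT20, KRT5, KRT13 and CDH1 were at or near 0 in both. The summed level of 8 fibroblast genes was 7.26 to 8.45 CPM at P0 and 46.6 to 51.7 CPM at P15, where the collagen genes COL1A1 (mean 4.64) and COL3A1 (mean 4.51) made up most of it and DCN and LUM were at or near 0. Sums were 6.54 to 8.9 CPM at P0 and 0.142 to 0.37 CPM at P15 for 7 leukocyte genes, and 6.05 to 7.95 and 0.515 to 1.09 CPM for 5 endothelial genes. In each of these 2 lists only 1 gene was above 1 CPM on average at P0. The endothelial sum was already 0.436 to 0.648 CPM at P3. The part of these markers in the results was not tested, nor was the identity of the P15 culture, which bears on each P15 difference. Among the members, P0 replicate 2 was the lowest of its 4 libraries for 39 of 56 genes, P7 replicate 2 the highest for 34 and P15 replicate 3 the highest for 33.

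Most of the module was expressed at a lower level in late phase P15 than in parental phase P0. Of the 56 tested members, 34 were lower and 13 were higher at P15 (limma, Benjamini-Hochberg adjusted p below 0.05 over all 13249 tested genes), and 9 did not pass the test. Of all tested genes, 40.9% were lower and 45.3% were higher. The P15 and P0 libraries did not overlap for 40 members (71.4%), as for 79.7% of all tested genes. The median log2 difference of the members was -0.24, against 0.04 over all tested genes. Most of these differences were small, since 3 members were lower (BRCA1, BRIP1 and H2AFX) and 2 higher (ERCC1 and FANCE) by at least 2-fold, where 11.4% and 12.1% of all tested genes were. Without P0 replicate 2, P7 replicate 2 and P15 replicate 3, which were picked from these same values, 35 members were lower and 13 higher. When a difference had to exceed 1.2-fold by limma's treat test, 17 were lower and 7 higher.

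**Figure D1:**
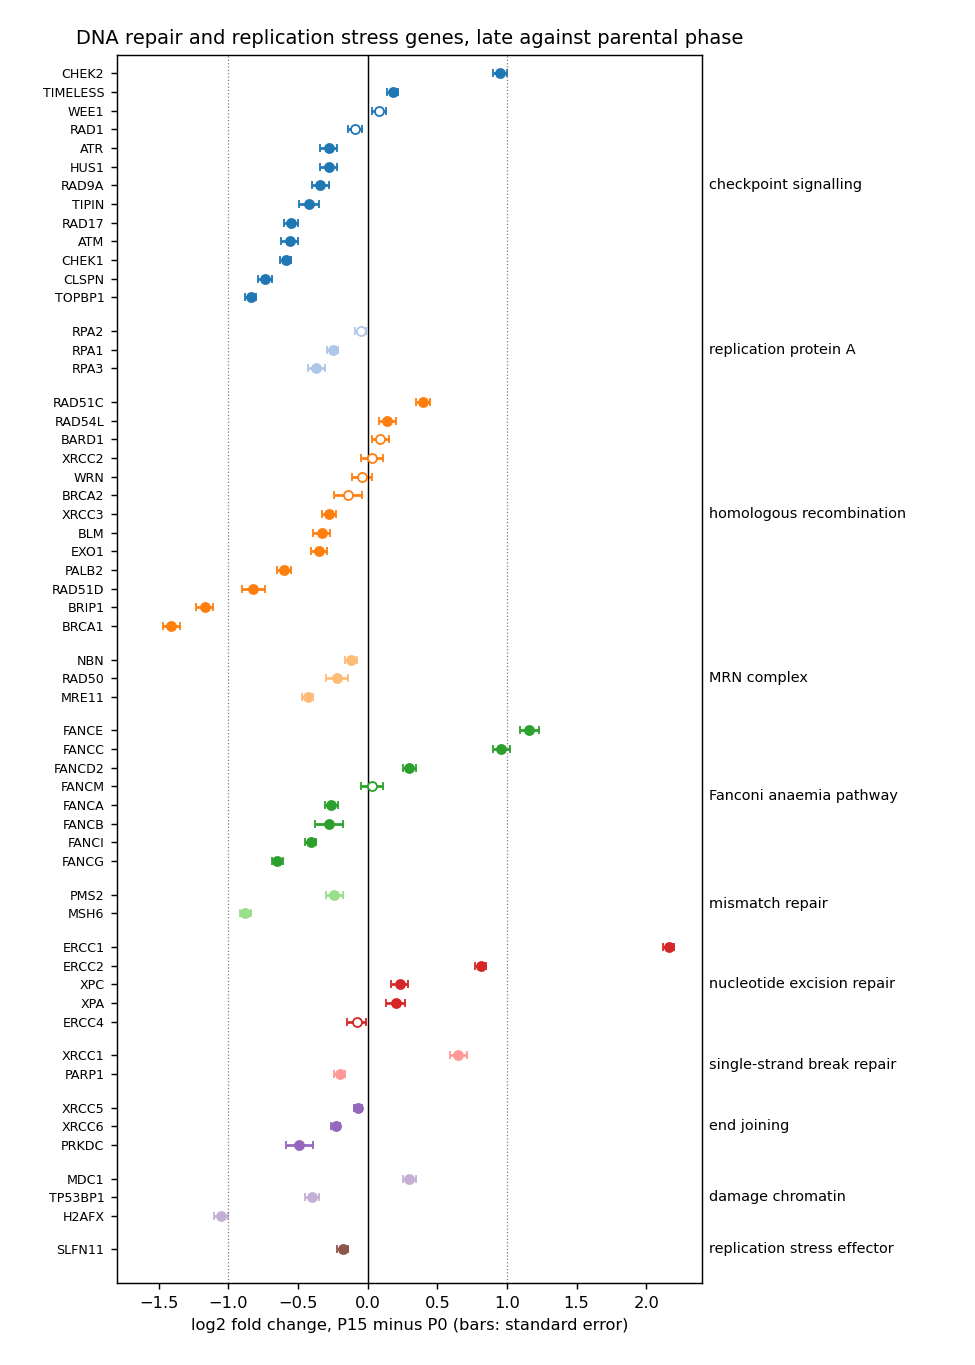
Log2 fold change of P15 against P0 for each of the 56 tested members, arranged by functional group, with the standard error as a bar. Filled points passed the test and open points did not, and the dotted lines mark a 2-fold difference. Points of the checkpoint and homologous recombination groups lie mostly left of 0, with BRCA1 at -1.41, while ERCC1 lies farthest to the right at 2.16.

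A list of 20 S phase genes, which are expressed mainly while DNA is replicated, was lower at P15 as well. At P15 18 of the 20 were lower (90%) and 2 were higher (10%) than at P0, with a median log2 difference of -0.89. Of all tested genes, 40.9% were lower and 45.3% higher. Their summed level was 2930 to 3160 CPM in the P0 libraries, 3230 to 3270 at P3, 2710 to 2760 at P7 and 1580 to 1690 at P15. PCNA, the sliding clamp of the DNA polymerases, fell by 2.07 on the log2 scale, and MCM2, a subunit of the replicative helicase, fell by 1.30. Of 20 genes of G2 and mitosis, 12 were lower (60%) and 8 higher (40%) at P15, with a median of -0.17. The part of these lists in the differences of the members was not tested.

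Promoter sequences of the members were also examined. RefSeq promoter windows (build GRCh38.p14, from 250 bases before to 50 bases after an annotated start) were at hand for 48 of the 57 members, and several members have more than 1 window. An E2F core (TTGGCGC or TTCGCGC or TTCCCGC or TTGCCGC on either strand), the sequence bound by the E2F factors that drive S phase genes, was found in 30 of the 48 members (62.5%), compared with 25.6% of 10155 tested genes and 15.3% of all 27305 genes with a window. The share did not separate the members by direction, as 18 of 28 members lower at P15 (64.3%) and 9 of 13 members higher at P15 (69.2%) held the core. A CCAAT box (CCAAT on either strand) was found in 29 members (60.4%) against 43.5% of tested genes, and a CHR element (TTTGAA or TTCGAA) in 8 (16.7%) against 15.4%. By direction, 20 of 28 lower members (71.4%) and 7 of 13 higher members (53.8%) held the CCAAT box, against 44.7% and 42.5% of tested genes. For the CHR element these were 4 of 28 (14.3%) and 4 of 13 (30.8%), against 15.5% of tested genes in either direction. Whether motif and direction are related was not tested. The median GC content of the windows was 64.3% for members and 65.0% for tested genes. These matches describe letters in a window and do not show that a factor binds there.

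The stretches printed here show matches in some of the members, picked as examples, and other members that hold a match are not printed. BRCA1 and TIPIN each have another window, which holds no E2F core. The BRCA1 stretch lies at chr17:43125395-43125424 (minus strand) from 60 to 31 bases before one of its 2 starts, and that of TOPBP1 at chr3:133661942-133661971 (minus strand) in the 30 bases before its start. The others hold the 120 bases before a start, at chr15:66356686-66356805 (minus strand) for TIPIN, chr15:90717226-90717345 (plus strand) for BLM, chr9:95317255-95317374 (minus strand) for FANCC, chr1:35769979-35770098 (minus strand) for CLSPN and chr11:119095466-119095585 (minus strand) for H2AFX. Each is written 5′ to 3′ on the strand of the gene. Capitals mark E2F cores in BRCA1, TOPBP1, TIPIN, BLM and FANCC, where those of TOPBP1 and TIPIN are 2 overlapping matches, and CCAAT boxes in CLSPN and H2AFX.
BRCA1: gcaacggaaaagcGCGGGAAttacagataa
TOPBP1: aggcaagcgcggccgcgcggTTGGCGCGAA
TIPIN: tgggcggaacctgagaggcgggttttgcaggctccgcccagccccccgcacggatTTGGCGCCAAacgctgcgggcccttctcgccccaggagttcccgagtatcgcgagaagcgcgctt
BLM: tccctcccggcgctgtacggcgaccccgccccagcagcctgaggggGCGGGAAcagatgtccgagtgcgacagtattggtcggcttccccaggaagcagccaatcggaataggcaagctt
FANCC: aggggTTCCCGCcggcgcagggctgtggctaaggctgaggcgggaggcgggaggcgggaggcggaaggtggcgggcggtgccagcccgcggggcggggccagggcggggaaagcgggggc
CLSPN: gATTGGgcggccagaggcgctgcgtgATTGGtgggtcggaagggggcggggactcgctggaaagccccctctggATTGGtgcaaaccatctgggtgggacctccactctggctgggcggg
H2AFX: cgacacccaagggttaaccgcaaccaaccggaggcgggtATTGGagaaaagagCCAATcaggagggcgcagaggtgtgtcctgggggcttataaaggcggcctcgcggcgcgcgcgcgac

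Checkpoint genes were lower at P15 in 9 of 13 tested members (69.2%), with 2 higher (15.4%) and a median log2 difference of -0.34. Of all tested genes, 40.9% were lower and 45.3% higher. TOPBP1, the activator of ATR, fell by 0.84 ± 0.04 on the log2 scale and CLSPN, which encodes claspin, by 0.74 ± 0.05. CHEK1, the effector kinase of ATR, was at 6.45, 6.33, 6.43 and 6.44 in the P0 libraries and at 6.48, 6.47, 6.50 and 6.48 at P3. It was at 6.11, 6.21, 6.17 and 6.10 at P7 and at 5.85, 5.74, 5.85 and 5.84 at P15. Every P15 library was thus below every library of the other phases, and CHEK1 fell by 0.59 ± 0.04 (standard error) on the log2 scale from P0 to P15 (limma adjusted p = 2.1e-13). ATR, the kinase upstream of it, was at 5.56, 5.30, 5.38 and 5.41 at P0, 5.41, 5.17, 5.30 and 5.41 at P3, 5.26, 5.43, 5.29 and 5.31 at P7 and 5.07, 5.05, 5.30 and 5.10 at P15. The P15 libraries of ATR reached the lowest P0 value, and its difference was -0.28 ± 0.06 (limma adjusted p = 2.4e-04). RAD17, which loads the 9-1-1 clamp at damaged sites, differed by -0.55 ± 0.05, RAD9A, a subunit of this clamp, by -0.34 ± 0.06 and HUS1, another subunit, by -0.28 ± 0.06, while RAD1, the third subunit, had a value of -0.09 ± 0.05 that did not pass the test. ATM, the kinase that answers double-strand breaks, differed by -0.56 ± 0.06.

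CHEK2, the effector kinase of ATM, moved the other way. Its values were 4.36, 4.36, 4.35 and 4.45 at P0, 4.47, 4.44, 4.55 and 4.48 at P3, 4.69, 4.81, 4.80 and 4.71 at P7 and 5.36, 5.33, 5.38 and 5.26 at P15. The P0 and P3 libraries overlapped, the P7 libraries were all above both and the P15 libraries above all others. The log2 difference of CHEK2 was 0.95 ± 0.05 from P0 to P15 (limma adjusted p = 2.1e-15) and 0.27 ± 0.05 from P3 to P7 (limma adjusted p = 4.0e-05). Pseudogene copies of CHEK2 that are in the table were at or near 0. WEE1, the kinase that holds CDK1 inactive, was at 5.76, 5.71, 5.82 and 5.72 at P0, 5.96, 5.93, 5.99 and 5.93 at P3, 5.93, 6.10, 5.82 and 5.95 at P7 and 5.90, 5.91, 5.72 and 5.81 at P15. Its P15 and P0 libraries overlapped and the difference of 0.08 ± 0.05 did not pass the test (limma adjusted p = 0.13). Without the 3 libraries named above the difference of WEE1 was 0.11 and passed. These libraries were picked from the values of the members, so that fit does not decide whether WEE1 rose. The fork protection pair was divided, with TIMELESS at 0.18 ± 0.04 and its partner TIPIN at -0.42 ± 0.07.

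The 3 subunits of replication protein A differed little. RPA3, the smallest subunit, was at 4.84, 4.99, 5.06 and 4.82 at P0, 4.73, 4.65, 4.79 and 4.91 at P3, 4.87, 5.05, 5.01 and 4.93 at P7 and 4.65, 4.57, 4.57 and 4.44 at P15. The P15 libraries lay below all P0 libraries, with a difference of -0.37 ± 0.06 (limma adjusted p = 9.7e-06). RPA1, the large subunit, differed by -0.25 ± 0.04, and RPA2 had a value of -0.05 ± 0.04 that did not pass the test.

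Homologous recombination genes held the deepest falls of the module. At P15 7 of 13 were lower (53.8%) and 2 were higher (15.4%) than at P0, with a median of -0.28. Of all tested genes, 40.9% were lower and 45.3% higher. BRCA1, which promotes the resection of broken ends, was at 6.54, 6.18, 6.61 and 6.47 at P0, 6.50, 6.51, 6.45 and 6.55 at P3, 6.27, 6.26, 6.30 and 6.23 at P7 and 4.99, 4.97, 5.13 and 5.06 at P15. Its P15 libraries were more than 1 log2 unit below every other library, including the low P0 replicate 2, and the difference from P0 was -1.41 ± 0.06 (limma adjusted p = 1.0e-16). BRIP1, the helicase that binds BRCA1, was at 5.70, 5.57, 5.74 and 5.66 at P0, 6.0, 6.01, 6.0 and 6.0 at P3, 5.63, 5.83, 5.54 and 5.66 at P7 and 4.35, 4.44, 4.67 and 4.53 at P15. The P3 libraries were above and the P15 libraries below all others, and the difference from P0 was 0.33 ± 0.06 at P3 (limma adjusted p = 3.0e-05) and -1.17 ± 0.06 at P15 (limma adjusted p = 3.8e-15). PALB2, which joins BRCA1 to BRCA2, fell by 0.60 ± 0.05 on the log2 scale.

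RAD51D, a factor of homologous recombination, was at 4.50, 4.39, 4.46 and 4.36 at P0, 4.78, 4.62, 4.72 and 4.75 at P3, 4.66, 4.73, 4.63 and 4.64 at P7 and 3.48, 3.40, 3.92 and 3.63 at P15. The P15 libraries were below all others and more spread out, with a mean of 3.61 ± 0.23 (SD, n = 4). The difference was -0.82 ± 0.08 from P0 (limma adjusted p = 5.6e-10) and -1.06 ± 0.08 from P7 (limma adjusted p = 4.1e-12). RAD51C, found in the same complex, was instead higher by 0.40 ± 0.05 at P15. BRCA2, which acts with PALB2 in strand invasion, was at 4.68, 4.18, 4.62 and 4.52 at P0, 4.65, 4.62, 4.54 and 4.59 at P3, 3.97, 4.08, 3.95 and 4.00 at P7 and 4.12, 4.27, 4.78 and 4.28 at P15. P0 replicate 2 and P15 replicate 3 lay apart from the other libraries of their phases, and the P15 difference of -0.14 ± 0.10 did not pass the test (limma adjusted p = 0.22). Without the 3 libraries named above, P0 replicate 2 and P15 replicate 3 among them, the difference was -0.38 and passed. These libraries were picked because member values stood apart in them, so that fit does not decide whether BRCA2 fell. RAD54L, a motor protein that acts in strand exchange, was at 4.64, 4.72, 4.55 and 4.66 at P0, 5.19, 5.14, 5.16 and 5.26 at P3, 4.79, 4.92, 4.73 and 4.75 at P7 and 4.61, 4.82, 4.87 and 4.85 at P15. The P3 libraries stood above all others, while the P0 and P15 libraries overlapped, and the difference of 0.14 ± 0.06 (limma adjusted p = 0.024) no longer passed after quantile normalization. The other members were lower, as XRCC3 (-0.28 ± 0.05), BLM (-0.33 ± 0.06) and EXO1 (-0.35 ± 0.06), or did not pass the test, as BARD1 (0.09 ± 0.06), XRCC2 (0.03 ± 0.08) and WRN (-0.04 ± 0.07).

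**Figure D2:**
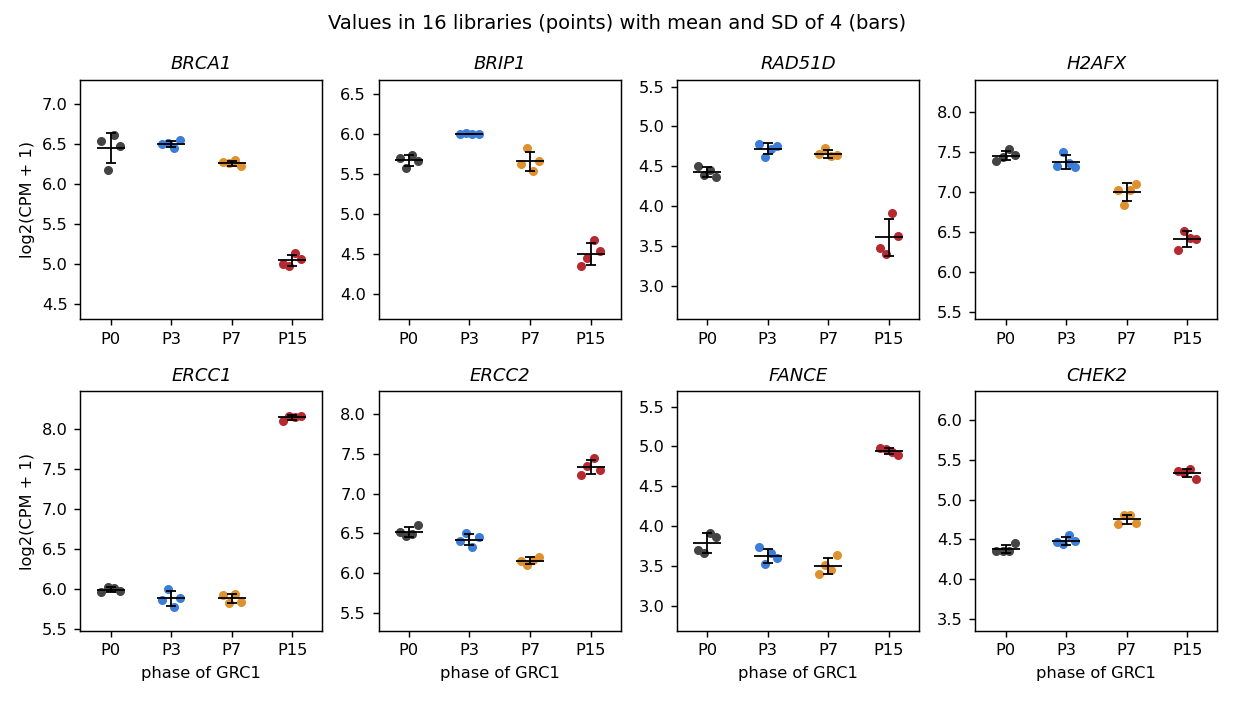
Values in log2(CPM + 1) of 8 members in the 16 libraries, by phase of GRC1, with the mean and SD of 4 libraries as bars. Each panel spans 3 log2 units. BRCA1, BRIP1, RAD51D and H2AFX (upper panels) are lowest at P15, and ERCC1, ERCC2, FANCE and CHEK2 (lower panels) are highest there.

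All 3 genes of the MRN complex were lower at P15, as were 40.9% of all tested genes. MRE11, its nuclease, was at 6.21, 6.15, 6.24 and 6.23 at P0, 5.94, 5.94, 6.02 and 5.97 at P3, 5.94, 6.08, 5.97 and 5.93 at P7 and 5.76, 5.70, 5.92 and 5.75 at P15. The P0 libraries were above all others, and the difference at P15 was -0.43 ± 0.04 (limma adjusted p = 3.4e-09). RAD50 differed by -0.22 ± 0.08 and NBN by -0.12 ± 0.04. RAD50 shares 76.9% of its exon bases with other annotated genes and XRCC3 shares 76.7% with KLC1 on the opposite strand, so that both values are uncertain. TIPIN, MSH6, XPC, XRCC1 and TP53BP1 share 21.1% to 28.8%, and the strand setting of the counting is not given in the sources used here.

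Of the 8 Fanconi anaemia pathway genes, 4 were lower (50%) and 3 higher (37.5%) at P15, where 40.9% and 45.3% of all tested genes were. Their median was -0.12. FANCE, which bridges the core complex to FANCD2, was at 3.70, 3.66, 3.92 and 3.86 at P0, 3.74, 3.53, 3.67 and 3.60 at P3, 3.40, 3.51, 3.45 and 3.64 at P7 and 4.98, 4.97, 4.93 and 4.89 at P15. All P15 libraries were above all libraries of the other phases, and the difference from P0 was 1.16 ± 0.07 (limma adjusted p = 5.7e-14). FANCC, its neighbour in the core complex, was higher by 0.96 ± 0.06 and FANCD2, the target that the pathway ubiquitinates, by 0.30 ± 0.05. Lower were FANCG (-0.65 ± 0.04), FANCA (-0.26 ± 0.05) and FANCB (-0.28 ± 0.10) of the core complex and FANCI, the partner of FANCD2 (-0.41 ± 0.04). FANCM, the helicase that anchors the core complex, had a value of 0.03 ± 0.08 that did not pass the test.

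Both mismatch repair genes were lower at P15, as were 40.9% of all tested genes. MSH6, which recognises mispaired bases, was at 7.21, 6.94, 7.14 and 7.14 at P0, 6.87, 6.81, 6.87 and 6.87 at P3, 6.95, 7.06, 6.92 and 7.02 at P7 and 6.26, 6.23, 6.19 and 6.25 at P15. Every P15 library was below every other library, and the difference from P0 was -0.88 ± 0.04 (limma adjusted p = 2.7e-15). PMS2 differed by -0.24 ± 0.06, and its value is uncertain because near-identical copies such as PMS2CL (mean 3.01) and PMS2P1 (mean 3.14) were expressed.

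Nucleotide excision repair genes were mostly higher, with 4 of 5 genes higher at P15 and a median of 0.23. Of all tested genes, 45.3% were higher. ERCC1, the partner of the nuclease XPF, was at 5.96, 6.02, 6.01 and 5.97 at P0, 5.86, 6.0, 5.77 and 5.89 at P3, 5.92, 5.82, 5.93 and 5.83 at P7 and 8.10, 8.17, 8.15 and 8.17 at P15. The P0, P3 and P7 libraries lay close together, and all P15 libraries were far above them. The difference was 2.16 ± 0.04 from P0 (limma adjusted p = 7.3e-24) and 2.27 ± 0.04 from P7 (limma adjusted p = 2.4e-24). ERCC2, the XPD helicase of TFIIH, was at 6.52, 6.47, 6.49 and 6.60 at P0, 6.41, 6.50, 6.33 and 6.45 at P3, 6.16, 6.11, 6.17 and 6.21 at P7 and 7.23, 7.35, 7.45 and 7.29 at P15. It fell slightly up to P7 and then rose above all earlier libraries, by 1.17 ± 0.04 from P7 (limma adjusted p = 6.8e-18) and 0.81 ± 0.04 from P0. XPC, the damage sensor, was higher by 0.23 ± 0.06 and XPA, a scaffold of the incision complex, by 0.20 ± 0.07. ERCC4, which encodes XPF itself, had a value of -0.08 ± 0.07 that did not pass the test.

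ERCC1 (chr19:45407334-45478828, minus strand, GENCODE version 44 on GRCh38) and ERCC2 (chr19:45349837-45370918, minus strand) lie near each other on chromosome 19. Within 1 Mb of ERCC1, 38 other genes were tested, ERCC2 among them, and their median log2 difference of P15 against P0 was 0.81, with 31 higher and 3 lower. At least 2-fold higher were 15 (39.5%), where 12.1% of all tested genes were. The same medians were -0.06 at P3 and -0.04 at P7. PPP1R13L, which lies between ERCC2 and ERCC1, differed by 1.40, and beyond ERCC1 the values were 1.31 for RTN2, 1.11 for PPM1N and 1.04 for VASP. FOSB, which lies within the span of ERCC1, had a smaller difference of 0.24, and OPA3 differed by -0.18. POLR1G, listed as CD3EAP, shares exon bases with ERCC1 on the opposite strand and had a mean of 3.28 at P0 and 3.32 at P15, and the overlap covers 28.6% of the exon bases of ERCC1. The 3 members on chromosome 19, ERCC1, ERCC2 and XRCC1, were all higher at P15, and the 898 tested genes of this chromosome had a median of 0.40. On chromosome 11, 5 of 6 members were lower (median -0.50), and its 723 tested genes had a median of -0.53. At P15, 45.3% of all tested genes were higher than at P0 and 40.9% lower. On chromosome 17, 5 of 6 members were lower (median -0.53), while its 774 tested genes had a median of -0.06. The medians of members and of all tested genes were -0.40 and -0.05 on chromosome 15 and -0.26 and 0.08 on chromosome 7. They were -0.20 and 0.10 on chromosome 1, and -0.03 and 0.21 on chromosome 3. Around CHEK1, on chromosome 11, 25 other tested genes had a median of -0.92, and 12 of them (48.0%) were at least 2-fold lower, where 11.4% of all tested genes were. The medians around the other members of chromosome 11 were 0.42 for ATM, -0.13 for WEE1, -0.36 for RAD9A, -0.71 for MRE11 and -0.21 for H2AFX. Around BRCA1, 47 tested genes had a median of -0.41, while around BRIP1 (8 genes), RAD51D (15 genes) and FANCE (17 genes) the medians were 0.16, 0.13 and 0.19. DNA copy number was not measured, and the part of chromosomal position in these differences was not tested.

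**Figure D3:**
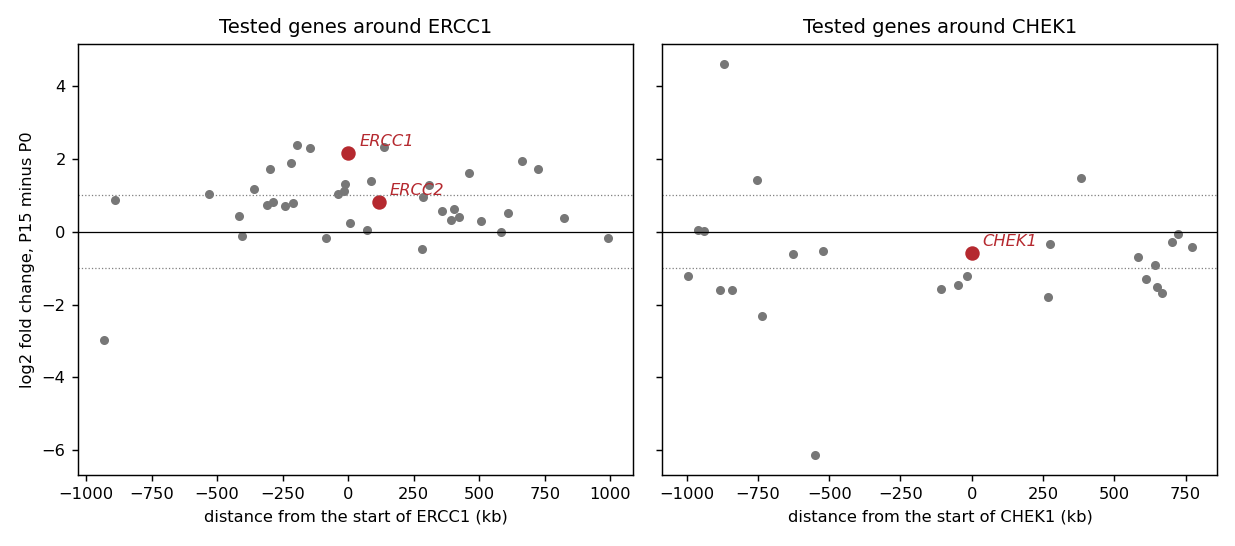
Log2 fold change of P15 against P0 for tested genes within 1 Mb of ERCC1 (left) and CHEK1 (right), by distance in kb from its start. Members are red, other genes grey, and dotted lines mark a 2-fold difference. Most genes near ERCC1 lie above 0 (median 0.81) and most genes near CHEK1 below 0 (median -0.92).

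In single-strand break repair, XRCC1, the scaffold protein, was at 4.97, 4.99, 4.85 and 4.94 at P0, 4.64, 4.90, 4.78 and 4.59 at P3, 4.80, 4.75, 4.77 and 4.74 at P7 and 5.54, 5.64, 5.57 and 5.60 at P15. The P15 libraries were above all others, with a difference of 0.65 ± 0.06 from P0 (limma adjusted p = 7.6e-11). PARP1, which marks breaks with poly(ADP-ribose), was at 8.68, 8.45, 8.64 and 8.67 at P0, 8.37, 8.41, 8.39 and 8.39 at P3, 8.07, 8.08, 8.09 and 8.07 at P7 and 8.44, 8.41, 8.36 and 8.42 at P15. Its libraries were highest at P0 and lowest at P7, and the difference at P15 was -0.20 ± 0.04 (limma adjusted p = 2.5e-05).

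All 3 end joining genes were lower at P15, as were 40.9% of all tested genes, but the differences were small or spread widely. PRKDC, the catalytic kinase subunit, was at 9.64, 8.96, 9.51 and 9.48 at P0, 9.32, 9.08, 9.19 and 9.43 at P3, 8.82, 8.84, 8.74 and 8.91 at P7 and 8.82, 8.84, 9.12 and 8.87 at P15. P0 replicate 2 lay among the P15 libraries, so that the phases overlapped, and the difference was -0.49 ± 0.10 (limma adjusted p = 6.9e-05). The Ku subunits XRCC6 and XRCC5 differed by -0.23 ± 0.03 and -0.07 ± 0.03.

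Of the damage chromatin genes, H2AFX, the histone variant that is phosphorylated around breaks, was at 7.39, 7.44, 7.54 and 7.47 at P0, 7.33, 7.51, 7.37 and 7.32 at P3, 7.03, 6.84, 7.03 and 7.10 at P7 and 6.28, 6.51, 6.43 and 6.42 at P15. It fell from P3 to P7 and again to P15 without overlap of the libraries, and the difference from P0 was -1.05 ± 0.05 (limma adjusted p = 2.7e-15). TP53BP1, which restrains the resection of breaks, was at 6.94, 6.81, 6.87 and 6.89 at P0, 6.24, 6.20, 6.23 and 6.21 at P3, 6.27, 6.20, 6.26 and 6.19 at P7 and 6.38, 6.41, 6.67 and 6.44 at P15. It had fallen by 0.66 ± 0.05 at P3 already (limma adjusted p = 1.1e-11), and all later libraries were below all P0 libraries. MDC1, which binds phosphorylated H2AX, was higher by 0.30 ± 0.05 at P15.

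SLFN11, a factor that blocks stressed replication forks and is known for sensitising cells to drugs that damage DNA, changed little. Its values were 6.89, 6.72, 6.87 and 6.83 at P0, 6.58, 6.42, 6.52 and 6.57 at P3, 6.57, 6.71, 6.61 and 6.62 at P7 and 6.62, 6.67, 6.70 and 6.59 at P15. The P0 libraries were above all others and P3 was the lowest phase, and SLFN11 fell by 0.31 ± 0.04 at P3 (limma adjusted p = 9.9e-07) and was -0.18 ± 0.04 from P0 at P15 (limma adjusted p = 3.7e-04).

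In early phase P3 the module had no common direction. Compared with P0, 17 members were higher and 18 lower (31.4% and 37.3% of all tested genes), and the median was 0.04. The differences ran from -0.66 to 0.54, short of 2-fold, where 1.95% of all tested genes were at least 2-fold higher and 2.51% lower. Higher were 6 of 13 homologous recombination genes, 5 of 13 checkpoint genes and 4 of 8 Fanconi genes, and lower were both mismatch repair genes, both single-strand break repair genes and 3 of 5 nucleotide excision repair genes. The 3 members with the largest differences were TP53BP1 (-0.66 ± 0.05), RAD54L (0.54 ± 0.06, limma adjusted p = 1.4e-08) and CLSPN. CLSPN was at 6.24, 5.99, 6.16 and 6.07 at P0, 6.67, 6.59, 6.66 and 6.71 at P3, 5.88, 5.89, 5.86 and 5.90 at P7 and 5.25, 5.36, 5.53 and 5.37 at P15. No library of a phase overlapped one of another phase, and CLSPN rose by 0.54 ± 0.05 at P3 (limma adjusted p = 2.1e-09) before it fell. In all, 10 members (17.9%) were higher at P3 than at each other phase, namely CLSPN, TIPIN, TOPBP1, HUS1, RPA2, BRIP1, XRCC2, RAD54L, FANCA and FANCB, where 10.3% of all tested genes were. SLFN11 alone was lower at P3 than at each other phase (12.5% of all tested genes were). The 20 genes of G2 and mitosis were also highest at P3 in sum, at 4980 to 5250 CPM, against 4210 to 4740 CPM at P0 and 4000 to 4140 CPM at P7.

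Between P3 and intermediate phase P7 more members fell than rose. Of the 56, 31 were lower and 6 higher (28% and 30.3% of all tested genes), and the median was -0.18 against 0.01. The differences ran from -0.77 to 0.27, again short of 2-fold, where 0.845% of all tested genes were at least 2-fold lower and 0.989% higher. Homologous recombination genes were lower in 10 of 13 and Fanconi genes in 7 of 8 cases, both with a median of -0.29, and the other members of these groups did not pass the test. CLSPN fell by 0.77 ± 0.05 (limma adjusted p = 8.8e-12) and BRCA2 by 0.60 ± 0.10 (limma adjusted p = 3.1e-05). TIPIN, the partner of TIMELESS, was at 4.37, 4.62, 4.73 and 4.55 at P0, 4.87, 4.75, 4.70 and 4.77 at P3, 4.09, 4.21, 4.11 and 4.11 at P7 and 4.29, 3.95, 4.17 and 4.19 at P15. Its P7 libraries were below all P3 libraries and overlapped those of P15, and the step was -0.64 ± 0.07 (limma adjusted p = 5.9e-08). Of the 6 members that rose, CHEK2 had the largest difference, and the others were RPA3, RAD9A, RAD17, MSH6 and SLFN11. P7 was below each other phase for 8 members (14.3%, and 7.3% of all tested genes), which were BRCA2, XRCC3, EXO1, FANCM, ERCC2, PARP1, XRCC5 and MDC1, and above each for RAD9A and RAD17 (7.43% of all tested genes were). Without P7 replicate 2, as without P3 replicate 3, 3 members rose. Of the 20 S phase genes 14 were lower at P7 than at P3 and 6 did not pass the test, and of the 20 genes of G2 and mitosis 19 were lower. Against P0, 34 members were lower and 8 higher at P7 (34.2% and 27.9% of all tested genes), with a median of -0.15, and without P7 replicate 2 the number higher was 5.

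From P7 to late phase P15 members moved both ways, as all tested genes did. Of the 56, 22 were lower (39.3%) and 21 higher (37.5%), against 40.1% and 46.3% of all tested genes. The median was 0.01, against 0.05 over all tested genes, and became -0.04 after quantile normalization. ERCC1, FANCE and ERCC2 were higher by at least 2-fold and BRCA1, BRIP1 and RAD51D lower, 3 members each way, where 13.4% and 12.1% of all tested genes were. FANCE differed by 1.44 ± 0.07 from P7, BRCA1 by -1.23 ± 0.06 and BRIP1 by -1.17 ± 0.06. P15 was the lowest phase, below each other phase, for 21 members (37.5%, and 32.3% of all tested genes). They included ATR, CHEK1, CLSPN, TOPBP1, RAD17, BRCA1, PALB2, BRIP1, RAD51D, MSH6 and H2AFX. P15 was above each other phase for 9 members (16.1%, and 37.2% of all tested genes), which were CHEK2, TIMELESS, FANCC, FANCE, ERCC1, ERCC2, XPC, XRCC1 and MDC1. P0 was above each later phase for 11 members (19.6%, and 10.8% of all tested genes), which were ATM, PALB2, XRCC3, MRE11, MSH6, PMS2, PARP1, XRCC5, XRCC6, TP53BP1 and SLFN11. RAD51C and RAD54L were lower at P0 than at each later phase, as were 8.91% of all tested genes.

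**Figure D4:**
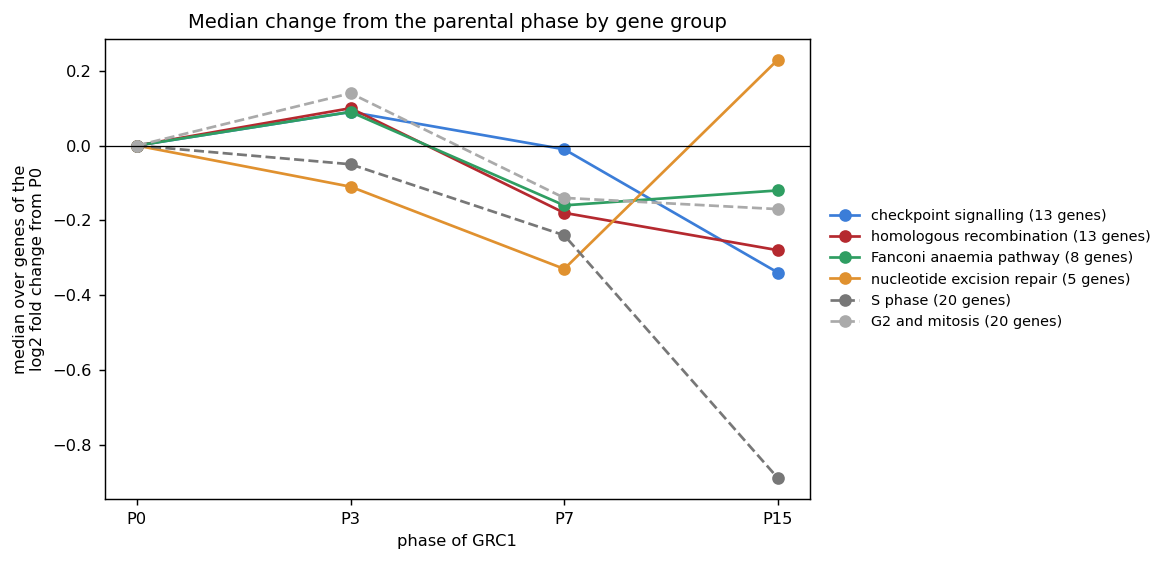
Median over the genes of a group of the log2 fold change from P0, by phase of GRC1, for 4 member groups (solid lines) and for the S phase and the G2 and mitosis genes (dashed lines). Checkpoint and homologous recombination genes end at -0.34 and -0.28 at P15, nucleotide excision repair genes at 0.23 and S phase genes at -0.89.

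Further repair genes were counted in 6 other lists for P15 against P0, a comparison in which 45.3% of all tested genes were higher and 40.9% lower. Of 16 translesion synthesis and fork remodelling genes, which let forks pass or reverse at lesions, 9 were higher and 4 lower (median 0.31), with HLTF at 0.83 and UBE2A at -1.22. Base excision repair, which replaces damaged bases, had 7 higher and 7 lower of 17 (median -0.04), with TDP1, which frees trapped topoisomerase, at -0.58. Recombination and resolution factors had 7 higher and 8 lower of 18 (median -0.01), with SFR1 at 0.82 and the resolvase GEN1 at -1.16. Further Fanconi genes had 3 higher and 4 lower of 8 tested (median -0.13), with WDR48 at 0.92 and FAAP100 at -0.77. Further excision repair genes had 7 higher and 7 lower of 14 tested (median 0.08), with ERCC6, which couples repair to transcription, at 1.18 and CETN2 at -1.69. Further end joining and break chromatin genes had 7 higher and 4 lower of 14 tested (median 0.16), with the ligase partner XRCC4 at 1.17 and the polymerase POLM at -2.40. Whether these lists differ from the members was not tested.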

How the data were processed

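Paired-end RNA sequencing covered T24 and GRC1 cells. By the study's methods, reads were aligned with STAR (version 2.6.1a per the labels) to GRCh38 and counted per gene with featureCounts. What the authors deposited is log2(CPM + 1) with 2 decimals, which keeps no whole counts for expressed genes. Quantile normalization and median centring, also named in the methods, are absent from these values. Strand setting, annotation release and the handling of reads shared by several genes are not given in the sources used here.

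Tests used limma 3.58.1 under R 4.3.3. Every phase had its own coefficient in 1 fit to the 16 libraries, the variance prior followed the mean level, and p-values were adjusted after Benjamini-Hochberg across the 13249 genes whose mean exceeded 1 CPM. Fold changes are on the log2(CPM + 1) scale and understate those of low genes. The procedure was tested on simulated data in which the noise was independent between genes and libraries. Such data hold no deviation shared by many genes of a library, so the simulation does not cover the libraries that stand apart. Genes given with the value in each library are those that changed at least 2-fold between P15 and P0 or P7, the largest change of each group, the 3 largest changes from P0 to P3 and from P3 to P7, and ATR, CHEK1, WEE1, PARP1 and SLFN11. Genes were placed with GENCODE version 44, which held 12652 of the tested symbols (95.5%). For the base excision repair list, 1 gene is not reported here. The members and lists were chosen with earlier results of these data known. The tests were repeated with 2 further filters, 2 further pseudocounts (0.1 and 5), quantile normalization, equal medians, a replicate block, a constant variance prior, the compared phases alone, limma's treat and each library left out, and without P15 replicate 1 and P3 replicate 2, whose index in the title stands apart. Leaving out together the 3 libraries that stand apart was chosen after seeing the data.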

Additional observations from a re-analysis of the deposited data

Results flagged for a closer look

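For each of the 56 tested members and the ATRIP gene, the 4 libraries of each phase were searched for 1 library far from the other 3 by Dixon's gap ratio, the gap to the nearest library divided by the range. Chance flags about 1 in 20 groups, or 11.4 of the 228 searched, and 17 were found, in 8 libraries.

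P0 replicate 2 lay below the others for CHEK1 (6.33, gap ratio 0.83), RPA1 (7.55, 0.90) and FANCI (7.24, 0.86). P0 replicate 4 lay above for CHEK2 (4.45, 0.90) and RAD9A (4.47, 1). P3 replicate 1 lay above for RPA1 (7.88, 0.88) and PMS2 (4.03, 0.94) and below for XRCC6 (9.49, 1). P3 replicate 2 lay above for BRIP1 (6.01, 1) and below for MSH6 (6.81, 1) and XRCC5 (8.93, 1). P7 replicate 2 lay above for TIPIN (4.21, 0.83) and XRCC2 (4.54, 0.87). P15 replicate 1 lay below for EXO1 (4.76, 0.83), P15 replicate 2 below for CHEK1 (5.74, 0.91), and P15 replicate 3 above for FANCA (5.57, 0.85) and PRKDC (9.12, 0.83). A ratio of 1 means that the other 3 libraries had the same rounded value, and for BRIP1 and XRCC6 the gap was 0.01, the last decimal of the table. The gaps were 0.27 for XRCC2, 0.25 for PRKDC and 0.22 for FANCA.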

How the results depend on the processing

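No called difference of a named gene changed sign under any alternative run. By a set limit on the ratio to the main count, 3 member counts moved in the fits without 1 library and 221 did not. In the other alternatives 13 moved and 167 did not. The treat test with a fold of 1.2 lowered the counts most, to 7 higher and 17 lower at P15 than at P0, 10 and 11 than at P7, 0 and 4 at P7 than at P3, 3 and 5 at P3 than at P0, and 0 and 9 at P7 than at P0, with 8 members below each other phase at P15. At an unadjusted p below 0.05, treat put 0 members higher at P7 than at P3 and 1 than at P0, where limma without treat called 6 and 8. Its construction asks for more than a difference from 0. Without a filter 3 members were higher at P7 than at P3, in place of 6, and with a pseudocount of 5, 1 member was at least 2-fold higher at P15 than at P0, in place of 2. Leaving out each library in turn gave 12 to 14 higher and 32 to 36 lower at P15 than at P0, 20 to 22 and 20 to 23 than at P7, 3 to 7 and 30 to 34 at P7 than at P3, 14 to 18 and 16 to 22 at P3 than at P0, and 5 to 8 and 29 to 34 at P7 than at P0. The range was 20 to 22 for members below each other phase at P15, and the counts at 2-fold (2 and 3) and above each other phase (9) did not move. Among differences of single named genes, 31 lost and 16 gained a call in the fits without 1 library, and 73 lost and 17 gained one in the other alternatives, treat included.

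Replicate numbers did not pair the libraries, since deviations from the phase means correlated at -0.15 to 0.22 over 24 pairs, 1 of them above 0.1. With the number as a replicate block, 13 members were higher and 33 lower at P15 than at P0. The values are rounded to 0.01, and GRC1 is 1 line, so that differences between lines were not measured.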

Other observations

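Among 20 genes of the p53 response, which is switched on by DNA damage and other stresses, 12 were higher and 8 lower at P15 than at P0 (limma, Benjamini-Hochberg), where 45.3% and 40.9% of all tested genes were. They did not move together. GADD45A, a stress sensor that also takes part in repair, was at 5.70, 5.62, 5.91 and 5.74 in the P0 libraries and at 8.63, 8.67, 8.83 and 8.83 at P15, a log2 difference of 3.0 ± 0.07 (limma adjusted p = 4.3e-22). PHLDA3, an inhibitor of AKT, went from 4.80, 4.64, 4.66 and 4.83 to 0.38, 0.41, 0.42 and 0.39, a difference of -4.33 ± 0.06 (limma adjusted p = 2.3e-26). The libraries of P0 and P15 did not overlap for either gene. CDKN1A, the cell cycle inhibitor p21, was higher by 0.70 ± 0.04 at P15, and MDM2, the ligase that degrades p53, had a difference of 0.11 ± 0.05. CDKN1A and MDM2 were picked after their values were seen.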
